A study of Rattus norvegicus with 8 samples.

Results

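Neurofilaments are the intermediate filaments of neurons. The 3 genes described here encode their classical subunits: Nefl (ENSRNOG00000013658) the light, Nefm (ENSRNOG00000013916) the medium and Nefh (ENSRNOG00000008716) the heavy chain. They were taken by identifier from a table of 32883 Ensembl genes, and all 3 were among the 4159 genes with enough molecules to be tested. The table gives identifiers only, and the 3 symbols came with the rule that chose the genes.

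The study profiled RNA from the lower lumbar cord of outbred Sprague Dawley rats with CEL-Seq2, which counts tagged transcript ends as single molecules. In the injured group, 4 libraries came from rats sampled 4 days after a hemisection, a cut through one side of the cord, at thoracic level 9. The uninjured group of 4 libraries came from rats with no spinal cord injury. The labels give no genotype, sex or age, do not say whether the uninjured rats had a sham operation or which side of the lumbar cord was taken, and do not state that each library was a separate animal, so that the p-values below rest on a spread between libraries that may in part be technical. The lumbar cord lies below the cut and was not its site, and the labels do not describe the state of the lumbar tissue.

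As background, the light chain forms the core on which the medium and heavy chains assemble. The long tails of the medium and heavy chains project from the filament and are heavily phosphorylated in axons. Neurofilaments fill large myelinated axons, set their calibre and are plentiful in spinal motor neurons. Their mRNA lies mostly in neuronal cell bodies, so that RNA of the lumbar cord reports on neurons located there, such as motor neurons, interneurons and cells of ascending tracts, and little on axons descending from the brain. Cut or damaged axons shed neurofilament protein, and the light chain is measured in body fluids as a marker of axonal damage. In RefSeq's rat gene table (assembly GRCr8), Nefl and Nefm were neighbours with no protein-coding gene listed between them, and Nefh lay on another chromosome.

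Depth was uneven. Totals ran from 119808 to 405537 molecules, and in each group the library numbered 3 was the shallowest. Their 10 most abundant genes took 24.6% (uninjured) and 18.5% (injured) of the molecules, against 8.88% to 13.3% in the other 6 libraries. The differences between the groups in levels, ratios and summed share, and the correlations between subunits, were therefore also computed without these 2 libraries. Each group has libraries titled 1 to 4, and no label explains these numbers. Cell type markers could not be looked up here, because the identifiers carry no symbols, so the labelled tissue was not checked. The 3 neuronal genes were present in every library, which cannot tell lumbar cord from other tissue with neurons.

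All 3 subunits were abundant for this table. Over the 8 libraries Nefl averaged 460.8 molecules per library and ranked 69 among the 4159 tested genes, Nefh averaged 220.8 and Nefm averaged 191.6. The median tested gene averaged 23.9. Nefl, Nefm and Nefh lay above 98.3%, 94.9% and 95.8% of the tested genes. Levels are given below as CPM, counts per 1000000 of the library's molecules in tested genes, scaled with edgeR's TMM factors.

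No neurofilament subunit differed between injured and uninjured lumbar cord by edgeR's quasi-likelihood test. Of the 3 genes, 0 passed at an adjusted p under 0.05 and 0 had an unadjusted p under 0.05, and the same counts of 0 came from DESeq2 and limma-voom. Among all 4159 genes tested, 0.986% passed at the adjusted threshold, 41 higher after injury and 0 lower. The share of all genes with an unadjusted p under 0.05 was not counted, so the unadjusted counts have no background here. The levels of the groups overlapped for all 3 subunits, and 4.86% of tested genes had groups that did not overlap. In bulk tissue, fewer neurons and less RNA per neuron cannot be told apart.

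Nefl, the light chain, stood at 1984, 1520, 776 and 2145 CPM in uninjured replicates 1 to 4, from 772, 345, 67 and 894 molecules. In injured replicates 1 to 4 it stood at 1942, 1205, 1815 and 932 CPM, from 703, 451, 233 and 221 molecules. The lowest and the highest of the 8 values were both uninjured, and the injured values lay between them. The uninjured mean was 1606 ± 614 CPM and the injured mean 1474 ± 484 CPM (SD, n = 4 each). The fitted log2 fold change, injured minus uninjured, was -0.14 ± 0.31 (SE; edgeR adjusted p = 0.991). Its 95% interval, from -0.79 to 0.51, corresponds to injured levels between 0.579 and 1.42 times the uninjured ones.

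Nefm, the medium chain, stood at 607, 617, 672 and 1029 CPM in uninjured replicates 1 to 4, from 236, 140, 58 and 429 molecules. In injured replicates 1 to 4 it stood at 575, 414, 1379 and 548 CPM, from 208, 155, 177 and 130 molecules. In each group 3 libraries lay close together and 1 stood well above them, uninjured replicate 4 and injured replicate 3. The means were almost the same, with 731 ± 201 CPM uninjured and 729 ± 439 CPM injured (SD, n = 4 each). The fitted log2 fold change was -0.04 ± 0.33 (SE; edgeR adjusted p = 0.999). Its 95% interval ran from -0.73 to 0.66, or from 0.602 to 1.58 times the uninjured level. This value depended on single libraries. Without injured replicate 3 the log2 fold change was -0.53 (edgeR adjusted p = 0.663). Without uninjured replicate 4 it was 0.18 (edgeR adjusted p = 0.983).

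Nefh, the heavy chain, stood at 648, 789, 556 and 1444 CPM in uninjured replicates 1 to 4, from 252, 179, 48 and 602 molecules. In injured replicates 1 to 4 it stood at 572, 598, 1021 and 519 CPM, from 207, 224, 131 and 123 molecules. Uninjured replicate 4 was the highest of the 8, and injured replicates 1, 2 and 4 lay close together at the low end. The uninjured mean was 859 ± 402 CPM and the injured mean 677 ± 231 CPM (SD, n = 4 each). Of the 3 subunits Nefh had the lowest fitted value, a log2 fold change of -0.38 ± 0.30 (SE; edgeR adjusted p = 0.922), below which lay 13.1% of tested genes. Its 95% interval ran from -1.01 to 0.26, or from 0.495 to 1.20 times the uninjured level. Without uninjured replicate 4 the log2 fold change was -0.0015 (edgeR adjusted p = 0.999).

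**Figure D1:**
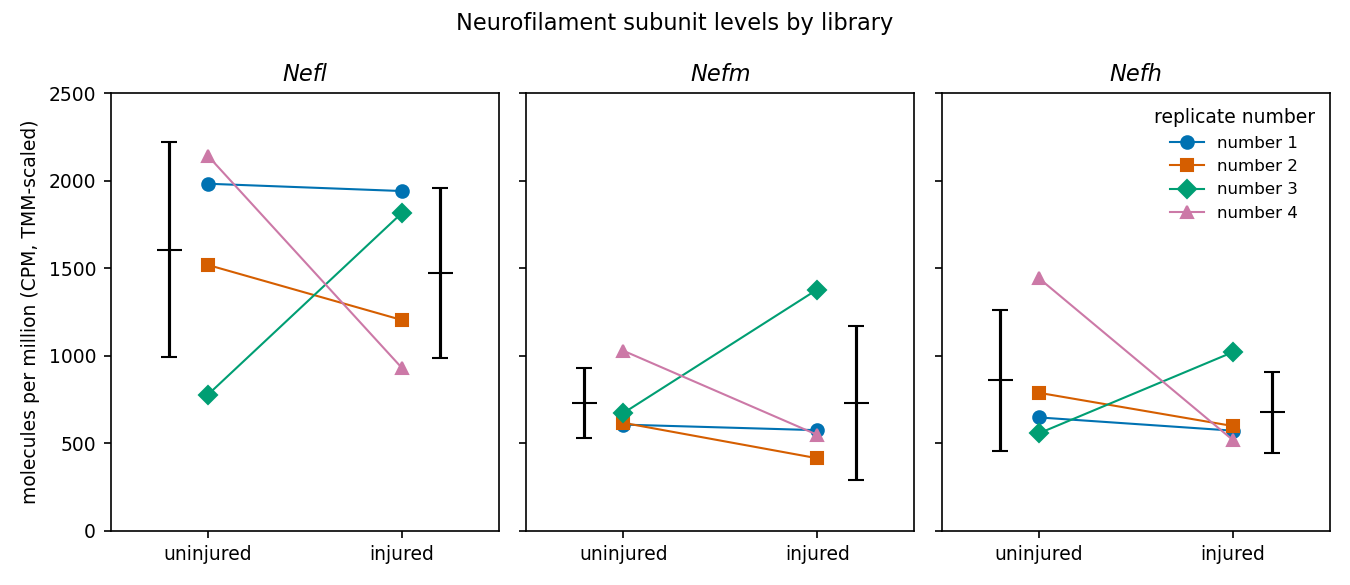
Level of each neurofilament subunit (vertical axis, CPM) in uninjured and injured libraries, with lines joining libraries of the same replicate number and black bars giving the group mean ± SD (n = 4). Number 3 is higher and number 4 lower in the injured library for all 3 subunits, and the groups overlap.

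The intervals of this fit, which used no replicate block, give limits that depend on the fit. A fall of Nefl beyond 1.73-fold and a fall of Nefm beyond 1.66-fold lay outside the 95% intervals, and for Nefh the interval reached a fall of 2.02-fold. The highest rise inside an interval of this fit was 1.58-fold, for Nefm. On the log2 scale its lower limits were -0.79 for Nefl, -0.73 for Nefm and -1.01 for Nefh. With the replicate number as a block they were -0.91, -0.73 and -1.09. With the block and without both libraries numbered 3 they were -0.93, -0.81 and -1.33, so larger falls lay inside those intervals.

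The comparisons by replicate number went in opposite directions. For number 1 the injured library held 0.979 (Nefl), 0.947 (Nefm) and 0.883 (Nefh) times the CPM of the uninjured library. For number 2 it held 0.793, 0.671 and 0.759 times as much, in the same order of genes. For number 3 it held 2.34, 2.05 and 1.84 times as much, and for number 4 it held 0.435, 0.533 and 0.359 times as much. All 3 subunits were thus lower in the injured library for numbers 1, 2 and 4 and higher for number 3. Both libraries numbered 3 were shallow, and the uninjured one gave 67, 58 and 48 molecules of Nefl, Nefm and Nefh.

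With the replicate number as a block, the log2 fold changes were -0.14 for Nefl, -0.18 for Nefm and -0.36 for Nefh. In the same order edgeR's adjusted p was 0.908, 0.840 and 0.701. Of all tested genes 2.64% passed in the fit with the block, 94 higher after injury and 16 lower. Without both libraries numbered 3, the differences were larger and none passed the adjusted threshold, with log2 fold changes of -0.47 for Nefl, -0.56 for Nefm and -0.78 for Nefh and edgeR adjusted p of 0.669, 0.586 and 0.377. At an unadjusted p under 0.05, 1 of the 3 genes, Nefh, passed in that fit (edgeR unadjusted p = 0.0223). At the adjusted threshold it called 61 of its 4660 tested genes higher and 1 lower. When these libraries were left out and the block was used as well, a setting added after the data had been seen, Nefm passed. Its log2 fold change was -0.52 ± 0.14 (SE; edgeR adjusted p = 0.0178), with lower levels after injury in all 3 remaining pairs. In that fit Nefl stood at -0.51 (edgeR adjusted p = 0.154) and Nefh at -0.68 (edgeR adjusted p = 0.226), and all 3 genes had an unadjusted p under 0.05. At the adjusted threshold the same fit called 2.38% of its 4660 tested genes lower, which is 111 genes, and 272 genes higher. For none of these fits was the share of all genes with an unadjusted p under 0.05 counted. Since leaving out number 3 removes the only pair in which the subunits were higher after injury, the call for Nefm depends on that choice.

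**Figure D2:**
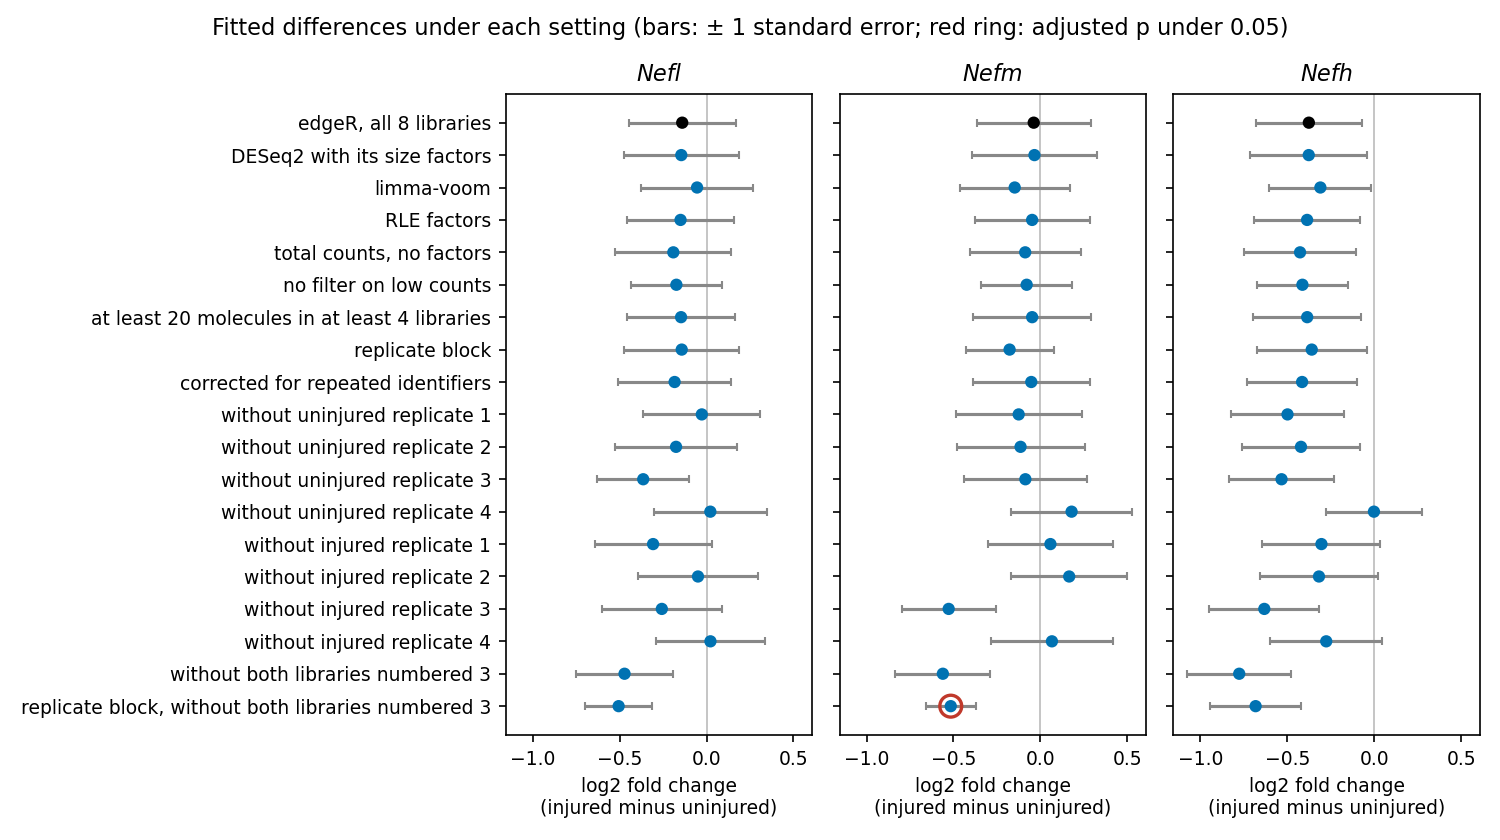
Log2 fold change (horizontal axis, injured minus uninjured) of each subunit under every setting tried, with bars of ± 1 standard error and a red ring where the adjusted p was under 0.05. The ring appears once, for Nefm at -0.52 with the replicate block and without both libraries numbered 3.

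In sum the 3 genes held 0.336%, 0.279%, 0.144% and 0.475% of all molecules in uninjured replicates 1 to 4. In injured replicates 1 to 4 they held 0.312%, 0.219%, 0.353% and 0.184%. The exact 95% binomial intervals, which cover counting error only, were 0.124% to 0.168% in uninjured replicate 3 and 0.454% to 0.496% in uninjured replicate 4. The uninjured libraries therefore spanned 3.29-fold, far beyond counting error, while the injured ones spanned 1.92-fold. As summed CPM the spans were closer, 2.30-fold in uninjured and 2.11-fold in injured libraries, so the contrast between the groups depended on the scaling. The means were 0.309% ± 0.137 in uninjured and 0.267% ± 0.0788 in injured libraries (SD, n = 4 each), and the difference, -0.0414 percentage points, was smaller than either SD. It depended on single libraries: leaving out 1 library moved it between -0.0961, without uninjured replicate 3, and 0.014, without uninjured replicate 4. It was -0.125 without both libraries numbered 3.

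Neurofilament levels varied more between libraries of a group than most genes of like abundance. The SD of log2 CPM within groups was 0.58 for Nefl, 0.58 for Nefm and 0.52 for Nefh. Among the tested genes nearest in mean count, up to 100 on either side, the median SD was 0.38, 0.35 and 0.34, and the 3 subunits exceeded 84.5%, 88.0% and 83.5% of these neighbours.

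Replicate number took a smaller share of the spread of each subunit level than in the median tested gene, and for Nefm the share was nearest that median. Dividing the sum of squares of log2 CPM over the 8 libraries, replicate number took 27.2% for Nefl, 47.0% for Nefm and 15.1% for Nefh, against a median of 54.8% over all tested genes. Injury took 0.707%, 1.58% and 9.40%, against a median of 7.68%. The remainder, which is the way the injured minus uninjured difference changes from number to number, took 72.1%, 51.4% and 75.6%, above 94.1%, 80.4% and 95.2% of tested genes. Replicate number has more levels than injury, so on average it takes a larger share even of pure noise. The shares of number and injury are therefore not like quantities. These shares are a description and carry no test.

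Ratios between subunits within a library need no scaling between libraries. CEL-Seq2 reads transcript ends, so counts were not divided by transcript length. How completely the ends of each gene were captured and assigned was not tested, so the ratios are compared between libraries and not read as the proportions of the proteins. Nefl was the most counted subunit in all 8 libraries and made up 49.6% ± 9.49 of the neurofilament molecules in uninjured and 51.7% ± 8.80 in injured libraries (SD, n = 4 each). Nefm made up 23.9% ± 6.58 and 24.4% ± 6.94, and Nefh 26.5% ± 4.72 and 23.9% ± 3.78, in the same order of groups.

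The ratio of Nefm to Nefl, the medium against the light chain, was 0.306, 0.406, 0.866 and 0.480 in uninjured replicates 1 to 4. It was 0.296, 0.344, 0.760 and 0.588 in injured replicates 1 to 4. It was lowest in number 1 and highest in number 3 of both groups, and libraries with the same number lay close together. On the log2 scale the injured group differed by -0.05 from the uninjured group, with within-group SDs of 0.64 in injured and 0.63 in uninjured libraries (exact two-sided permutation test, p = 0.943, adjusted over the 3 ratios 0.943).

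The ratio of Nefh to Nefl, the heavy against the light chain, was 0.326, 0.519, 0.716 and 0.673 in uninjured replicates 1 to 4. It was 0.294, 0.497, 0.562 and 0.557 in injured replicates 1 to 4. The injured library had the lower value in all 4 numbers, by a factor between 0.785 and 0.957. The log2 difference between the group means was -0.21 (exact two-sided permutation test, p = 0.486, adjusted 0.857). Taken as differences within numbers, an exact sign-flip test gave p = 0.125, which is the smallest that 4 pairs can give.

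The ratio of Nefh to Nefm was 1.07, 1.28, 0.828 and 1.40 in uninjured replicates 1 to 4 and 0.995, 1.45, 0.740 and 0.946 in injured ones. The exact 95% binomial interval of this ratio lay above 1 in 3 libraries, uninjured replicates 2 and 4 and injured replicate 2. It lay below 1 in injured replicate 3, where it ran from 0.586 to 0.933, and it included 1 in the other 4. In number 4 the interval of the injured library, 0.733 to 1.22, lay below that of the uninjured one, 1.24 to 1.59. Beyond counting error the order of Nefh and Nefm thus differed among injured libraries, and in uninjured replicate 3, with 48 against 58 molecules, it was not resolved. The log2 difference between the groups was -0.16 (exact two-sided permutation test, p = 0.571, adjusted 0.857). The smallest p this permutation test can give is 0.0286. Without both libraries numbered 3 the log2 differences were 0.0023 for Nefm/Nefl, -0.16 for Nefh/Nefl and -0.16 for Nefh/Nefm.

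**Figure D3:**
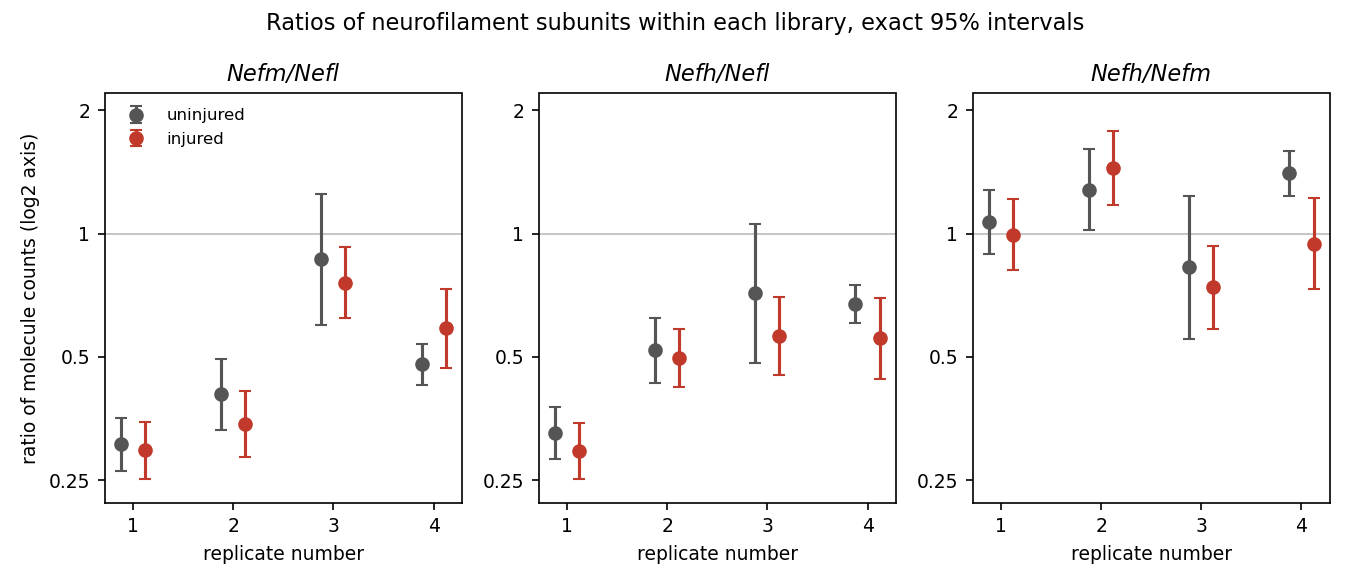
Ratio of molecule counts of each pair of subunits (vertical log2 axis) in each library by replicate number (horizontal axis), with exact 95% binomial intervals for counting error. Nefm/Nefl is 0.306 and 0.296 in the libraries numbered 1 and 0.866 and 0.760 in those numbered 3, and within a number the injured and uninjured intervals overlap except for Nefh/Nefm in number 4.

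Replicate number took a larger share of the variation of the ratios than of the levels. Number took 96.3% of the sum of squares of log2 Nefm/Nefl, 92.4% of log2 Nefh/Nefl and 77.5% of log2 Nefh/Nefm, and injury took 0.169%, 5.94% and 6.17%. As a background chosen after these values were seen, all 122265 pairs of the 495 genes with a mean of at least 100 molecules and none at 0 gave a median share for number of 64.3%. Nefm/Nefl lay above 97.7% of these pairs and Nefh/Nefl above 92.9%. Nefh/Nefm lay above 68.9%, close to the middle of the pairs. Pairs share genes and libraries, so these positions are a description. As for the levels, number takes a larger share than injury even of pure noise, on average. The range of Nefm/Nefl from lowest to highest library, 2.93-fold, was close to the median range of 2.85-fold over those pairs.

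**Figure D4:**
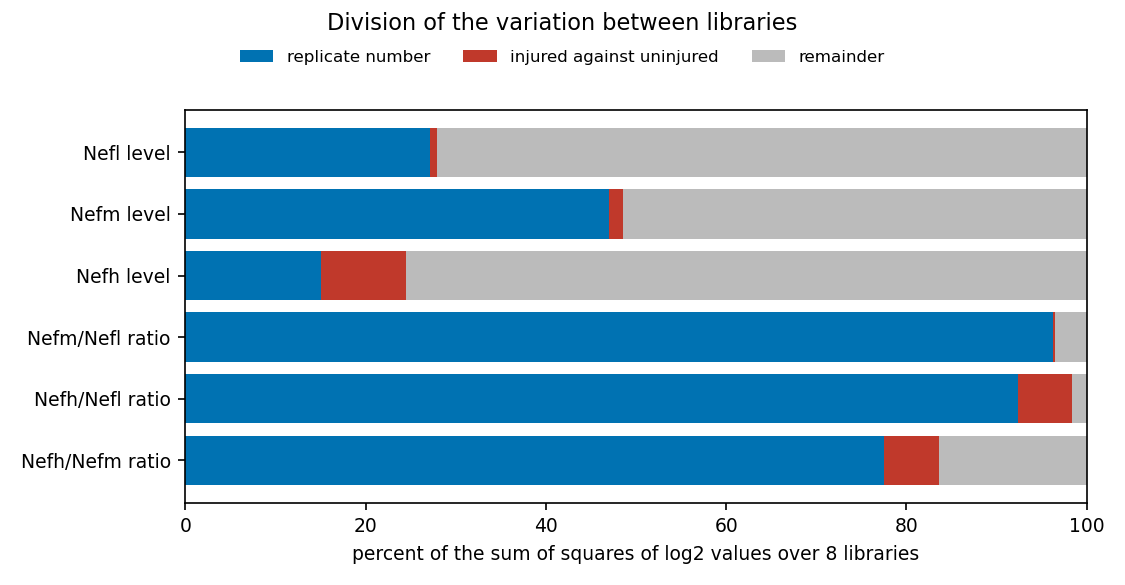
Share (horizontal axis, percent) of the sum of squares of log2 values over 8 libraries taken by replicate number, by injury and by the remainder, for the levels of the 3 subunits and for their 3 ratios. Number takes 15.1% to 47.0% for the levels and 77.5% to 96.3% for the ratios.

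Depth moved with 2 of the ratios, and its part in them was not tested. Across the 8 libraries, log2 Nefm/Nefl fell with the log2 total of molecules (Pearson r = -0.864, exact permutation p = 0.0058, adjusted over 3 ratios 0.0174). Spearman's rho was -0.619 (exact permutation p = 0.115, adjusted 0.172). Without the 2 libraries farthest from the median total, both numbered 3, r was -0.474 (exact permutation p = 0.331). The relation was thus not shown without those libraries, and leaving out extreme totals by itself tends to weaken r. For Nefh/Nefm, r was 0.756 (exact permutation p = 0.0317, adjusted 0.0475) and rho was 0.810 (exact permutation p = 0.0218, adjusted 0.0653), and without the same 2 libraries r was 0.320 (exact permutation p = 0.447). For Nefh/Nefl, r was -0.532 (exact permutation p = 0.161, adjusted 0.161) and rho was -0.381 (exact permutation p = 0.360, adjusted 0.360), and r was -0.217 (exact permutation p = 0.740) without those libraries. Totals were high in both libraries numbered 1 and low in both numbered 3, but differed within number 2 (238236 uninjured, 378725 injured) and number 4 (405537 uninjured, 257354 injured).

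The ratios spread as widely after a correction for repeated identifiers. In every library the most counted gene had 3989 to 4080 molecules, near the 4096 identifiers that 6 bases allow. No source used here gives the length of the identifiers. A correction under that assumption added 12.8% to Nefl in uninjured replicate 4, its highest count, and 0.827% in uninjured replicate 3. After it, Nefm/Nefl ranged from 0.277 in injured replicate 1 to 0.865 in uninjured replicate 3, a range of 3.12-fold against 2.93-fold before.

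The subunits varied together to different degrees. Across the 8 libraries Pearson's r of log2 CPM was 0.783 for Nefm and Nefh (exact permutation p = 0.0262, adjusted over 3 pairs 0.0787), with rho 0.643 (exact permutation p = 0.0962, adjusted 0.144). It was 0.629 for Nefl and Nefh (exact permutation p = 0.0865, adjusted 0.130), with rho 0.714 (exact permutation p = 0.0576, adjusted 0.144). It was 0.421 for the neighbouring genes Nefl and Nefm (exact permutation p = 0.302, adjusted 0.302), with rho 0.310 (exact permutation p = 0.462, adjusted 0.462). None passed after adjustment. Without the 2 libraries farthest from the median, r was 0.166 for Nefm and Nefh, 0.462 for Nefl and Nefh and 0.597 for Nefl and Nefm (exact permutation p = 0.713, 0.371 and 0.203). For Nefm and Nefh the libraries left out were uninjured replicate 4 and injured replicate 3, in which both genes were highest. Without either alone, r was 0.789 and 0.801 in the same order. Leaving out extreme values by itself tends to weaken r, so what the relation rested on was not decided. With group means removed, r was 0.787, 0.636 and 0.415 in the same order (exact permutation p = 0.0327, 0.0795 and 0.316, adjusted 0.0981, 0.119 and 0.316). Without both libraries numbered 3, r was 0.878, 0.586 and 0.630 (exact permutation p = 0.0444, 0.218 and 0.179, not adjusted). Levels of 1 library share a denominator.

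Among 1070 other tested genes with a mean of at least 50 molecules, the one whose log2 CPM most resembled the mean of the 3 subunits across the 8 libraries was ENSRNOG00000001915, with r = 0.904. It stood at 208, 211, 116 and 413 CPM in uninjured replicates 1 to 4 and at 276, 158, 273 and 118 CPM in injured ones. Like Nefl it was lowest in uninjured replicate 3 and highest in uninjured replicate 4, and its log2 fold change was -0.29 (edgeR adjusted p = 0.984). The next was ENSRNOG00000016234 with r = 0.898, which varied far less, between 409 and 584 CPM. The median r over the 1070 genes was 0.0176. Both were picked as the highest of 1070 values, so their r is a description, and the table gives no symbol for either.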

How the data were processed

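Lower lumbar cord was profiled in 4 injured and 4 uninjured libraries. The deposited values are raw counts of molecules per gene, and per the submitters' processing notes HISAT2 2.0.4, HTSeq 0.6.0 and build Rnor_6.0 were used. How identifiers were collapsed and which annotation release was used is not stated there. Groups came from the labels and replicate numbers from the titles. No table used here paired other Ensembl identifiers with symbols, so the planned lists of cytoskeletal genes and cell type markers were not run. The members, lists and settings were chosen with earlier results of these data known. Members were named by the rule that lists them, and at most 2 similar genes by highest correlation.

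Genes were kept with filterByExpr (minimum count 10, minimum total 15) and tested with edgeR 4.0.16 (R 4.3.3), TMM factors, a robust quasi-likelihood fit and Benjamini-Hochberg adjustment over 4159 genes. Alternatives used DESeq2 1.42.0 and limma 3.58.1, other scalings and filters, and each library left out. Standard errors came from the F statistic. Sums of squares, spreads and likeness took log2 CPM values (prior count 3). Ratios used an exact permutation test over 70 assignments (scipy 1.17.1 in Python 3.11.15), and figures used matplotlib 3.10.9. The edgeR test was checked on data simulated from its own fitted spread, without an effect of replicate number. The permutation test was checked on values with a known answer. Totals ran from 119808 to 405537 molecules, so that 3 molecules equal 7.20 to 34.8 CPM.

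Deviations from group means correlated between same-numbered libraries (0.168 to 0.448 over genes, against -0.388 to 0.238 for different numbers). All 4 exceeded 0.1, so numbers were also treated as pairs, on the data and not a stated design, while the main fit used no block. The lowest, 0.168, was that of number 3. It lay below 0.238 for uninjured replicate 1 with injured replicate 2 and 0.174 for uninjured replicate 2 with injured replicate 1. These values thus do not set number 3 apart as a pair. No 2 columns were identical.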

Additional observations from a re-analysis of the deposited data

Results flagged for a closer look

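Of 14 sets of 4 values examined for a library far from the other 3 of its group, 3 held one. For normally distributed values chance gives about 1 in 20 such sets, and the sets share libraries. The check used CPM and plain ratios and not log2 values, on which a high value stands out less. The count of flags is therefore a description and is not read as an excess over chance. Nefm reached 1029 CPM in uninjured replicate 4, and the gap to the next uninjured library took 84.5% of the group's range. Nefm reached 1379 CPM in injured replicate 3, with a gap of 83.4% of the range. Nefh reached 1021 CPM in the same injured library, with a gap of 84.1%. Nefl in that library, 1815 CPM, did not stand apart from the other injured libraries.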

How the results depend on the processing

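The adjusted p of Nefl and Nefh stayed above 0.05 in all 18 alternatives each, and that of Nefm in 17 of 18. Nefm passed with the replicate block and without both libraries numbered 3 (log2 fold change -0.52), a setting added after the data were seen. Leaving out 1 library moved the log2 fold change of Nefl between -0.36 and 0.0224, of Nefm between -0.53 and 0.18 and of Nefh between -0.63 and -0.0015, so the sign of Nefl and Nefm depends on single libraries. Over the other settings the values lay from -0.51 to -0.05, -0.56 to -0.03 and -0.78 to -0.31. With the replicate block alone they were -0.14, -0.18 and -0.36, and no call changed. The p of the ratios also stayed above the threshold after correction for repeated identifiers and with 0.5 added to both counts. The exact sign-flip test with the replicate block (p = 0.875, 0.125 and 0.5 for Nefm/Nefl, Nefh/Nefl and Nefh/Nefm) cannot go below 0.125 and says nothing on stability. Without 1 library their log2 differences lay from -0.28 to 0.24 (Nefm/Nefl), -0.45 to 0.01 (Nefh/Nefl) and -0.34 to -0.02 (Nefh/Nefm). The correlation without 1 library ran from 0.539 to 0.775 for Nefl and Nefh and from 0.772 to 0.815 for Nefm and Nefh. The unadjusted p, 0.0865 with all 8, was 0.0385 for Nefl and Nefh without injured replicate 1. For Nefm and Nefh, 0.0262 with all 8, it was 0.0599 without uninjured replicate 4 and 0.0605 without injured replicate 3.

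Over all genes, 41 were called with all libraries, 98 with no filter on low counts, 110 with the replicate block, 62 without both libraries numbered 3 and 383 with the block as well. Leaving out 1 library gave 23 (without uninjured replicate 1 or 4) to 77 (without uninjured replicate 3). The cause of these moves was not tested.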
